A study of Marchantia polymorpha and Klebsormidium nitens with 56 samples.

Results

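Gemmalings, the young plants that grow from the vegetative propagules of the liverwort *Marchantia polymorpha*, were compared after 5 h and after 1 h of heat at 37 °C in Tak-2, a female wild-type accession. The comparison holds 4 of the 56 samples of the series, chosen by their titles alone: 2 RNA sequencing libraries of 5 h and 2 of 1 h. All plants were 7 days old, wild type, kept in liquid B5 medium in constant light, with 22 °C as the growth temperature, and carried no transgene or mutation that the labels name. Heated libraries of Tak-1, a male wild-type accession, and of BC3, a female wild-type accession, with 2 of 5 h and 2 of 1 h each, and the 2 unheated libraries of BC3 stand beside them. The series also holds heat shock factor mutants, overexpression lines, an alga and chromatin samples, which were not used here.

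In land plants, heat shock transcription factors switch on genes of chaperones, the proteins that keep others folded, within the first hour of heat. As heat goes on, some of these transcripts decline and others build up, while genes of growth and metabolism are adjusted more slowly. *Marchantia* is haploid in its dominant stage, a flat thallus, and sex is set by a U chromosome in females and a V chromosome in males, so that male transcripts give a check of the labels.

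The heated Tak-2 libraries held 18210374 and 19353901 reads at 5 h and 16637520 and 16631552 reads at 1 h. Of these, 7 and 14 reads at 5 h and 14 and 19 at 1 h fell on the 113 identifiers that the table marks as Y, the older name of the V chromosome. Heated Tak-1 libraries held 7244 to 13907 such reads and BC3 libraries 6 to 20, so the heated Tak-2 libraries went with their female label. Among unheated libraries, the one titled Tak-2 control replicate 1 held 16838 and the one titled Tak-1 control replicate 2 held 23, which goes against both titles. No comparison reported below sets a group against an unheated library of Tak-2 or Tak-1. Those of Tak-1 share in the filter, the scaling and the estimate of the spread. Those of Tak-2 enter only the alternative fit with all 18 libraries. The labels do not say whether the libraries of a group came from separate cultures, although the design text calls them biological, so p-values measure the spread between libraries.

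Between 1 h and 5 h of heat a large part of the Tak-2 transcriptome moved, mostly by a small amount. Of 10761 genes with enough reads to test, out of 19755 in the table, 3061 were higher (28.4%) and 3299 lower (30.7%) at 5 h (edgeR quasi-likelihood test, Benjamini-Hochberg adjusted p below 0.05). Together they were 59.1% of the genes tested. Each gene model of the table was counted as a gene, although some models differ only in the number after the dot. Of the genes called, 4825 (75.9%) changed less than 2-fold, and the median change was a log2 of 0.59 among genes that rose and of -0.59 among genes that fell. At least 2-fold changes were called for 829 higher (7.70%) and 706 lower genes (6.56%), 14.3% together. At 4-fold or more 254 genes were higher and 130 lower, at 8-fold or more 94 and 42, and at 16-fold or more 41 and 16, many of them with few reads. Among genes that averaged at least 5 CPM (counts of reads, scaled to a common library size), 332 were higher and 402 lower at 2-fold or more, against the order over all genes, while at 4-fold or more 61 were higher and 36 lower. Of the 6360 genes called, all but 5 had both libraries of 5 h on one side of both libraries of 1 h, as did 8565 (79.6%) of all genes tested. In whole plants, a lower share of the cells that hold a transcript cannot be told apart from less of it per cell.

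The rises and falls of at least 2-fold lay at different levels (CPM, by library totals with trimmed-mean scaling). Of the 829 genes that rose, 197 stood under 1 CPM and 300 between 1 and 5 CPM on average over the 4 libraries, where standard errors were wide (median 0.65 and 0.32 on the log2 scale). Of the 706 that fell, 108 and 196 did so. At 100 CPM or more, where the median standard error was 0.06, 59 genes rose and 76 fell at least 2-fold among 2024, and 76.6% of the 2024 were called at any size. The 829 rising genes took 10.3% and 10.1% of the reads of the genes tested at 5 h, against 3.45% and 3.49% at 1 h. The 706 falling genes took 1.73% and 1.78% at 5 h, against 4.73% and 4.69% at 1 h. These shares describe lists chosen on the same libraries.

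**Figure D1:**
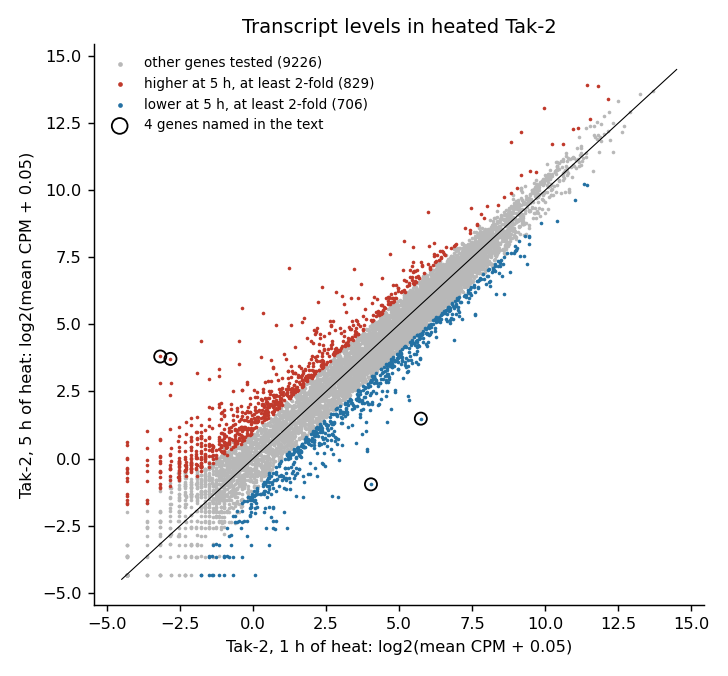
Mean level of each gene tested in the 2 Tak-2 libraries of 5 h (vertical axis) against the 2 of 1 h (horizontal axis), both as log2(mean CPM + 0.05), with the diagonal of no change. The 829 genes higher and the 706 lower by at least 2-fold are coloured, and rings mark the 4 genes with the largest changes at 5 CPM or more, 2 in each direction.

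The largest rise among genes of at least 5 CPM was that of Mapoly0126s0045.1, an identifier that is given here as the table writes it. None of the table's identifiers was matched to a gene name or function in the sources used here. The gene stood at 14.96 and 12.9 CPM at 5 h (247 and 228 reads), against 0.0600 and 0.0605 CPM at 1 h (1 read in each library). The ratio of 5 h to 1 h was 230, with a 95% exact counting interval of 63.4 to 1907 that covers counting error alone (log2 change 7.69 ± 0.50 SE, adjusted p = 2.94e-09). In heated Tak-1 and heated BC3 it had 0 reads in each of the 8 libraries. With a floor of 3 reads per group, its mean of 13.9 CPM at 5 h in Tak-2 was at least 169-fold higher than in Tak-1 at 5 h and at least 137-fold higher than in BC3 at 5 h. Against groups at 0 the fit gives no test of a difference in change.

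Mapoly0036s0136.1 had the next largest rise, at 13.5 and 12.6 CPM at 5 h, against 0.0600 and 0.121 CPM at 1 h (223 and 224 reads against 1 and 2). The ratio was 144, with a 95% exact counting interval of 49.1 to 703 (log2 7.07 ± 0.40, adjusted p = 7.95e-12). It was much lower in the other accessions, at 0.315 and 0.291 CPM in Tak-1 at 5 h and 0.112 and 0.120 CPM at 1 h. In BC3 it stood at 0.603 and 0.797 CPM at 5 h, against 0 and 0.0474 CPM at 1 h. The change in Tak-2 was larger than the change in Tak-1, with a log2 difference of 5.74 ± 1.17 and an adjusted p of 0.00142. The gene also rose in BC3 from 1 h to 5 h (log2 4.42 ± 0.78, adjusted p = 7.04e-05). Its change in Tak-1 did not pass (log2 1.33 ± 0.70, adjusted p = 0.123). The difference from the change in BC3, a log2 of 2.65 ± 1.91, did not pass (adjusted p = 0.437), with 1 read in BC3 at 1 h behind it. Unheated BC3 held this gene at 0.515 and 0.327 CPM (9 and 7 reads). Against that level, BC3 was lower at 1 h (log2 -3.65 ± 0.85, adjusted p = 0.000992). At 5 h it did not pass (log2 0.77 ± 0.45, adjusted p = 0.137), so no rise above the unheated level was called in BC3.

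Both genes with the largest falls also fell in the other accessions. Mapoly0136s0036.1 stood at 0.363 and 0.564 CPM at 5 h, against 16.7 and 15.97 CPM at 1 h (log2 -5.11 ± 0.25, adjusted p = 1.01e-12). It fell in Tak-1 too, to 1.32 and 0.969 CPM at 5 h, against 12.4 and 10.1 CPM at 1 h, and the fall in Tak-2 was deeper, with a log2 difference of -1.79 ± 0.44 and an adjusted p of 0.00637. In BC3 it stood at 0.905 and 0.245 CPM at 5 h, against 10.6 and 10.9 CPM at 1 h, and the difference in change of -0.82 ± 0.54 did not pass (adjusted p = 0.344). Unheated BC3 held 16.7 and 16.3 CPM.

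Mapoly0026s0138.1 stood at 2.97 and 2.54 CPM at 5 h, against 53.8 and 53.1 CPM at 1 h (log2 -4.28 ± 0.14, adjusted p = 1.74e-15). The 2 times did not overlap in any accession. Tak-1 had 1.77 and 2.18 CPM at 5 h, against 48.6 and 44.8 CPM at 1 h, and BC3 had 3.69 and 2.64 CPM at 5 h, against 47.2 and 47.4 CPM at 1 h. The changes in Tak-2 and Tak-1 differed by 0.26 ± 0.25 (adjusted p = 0.543) and those in Tak-2 and BC3 by -0.36 ± 0.24 (adjusted p = 0.358), so neither difference passed.

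**Figure D2:**
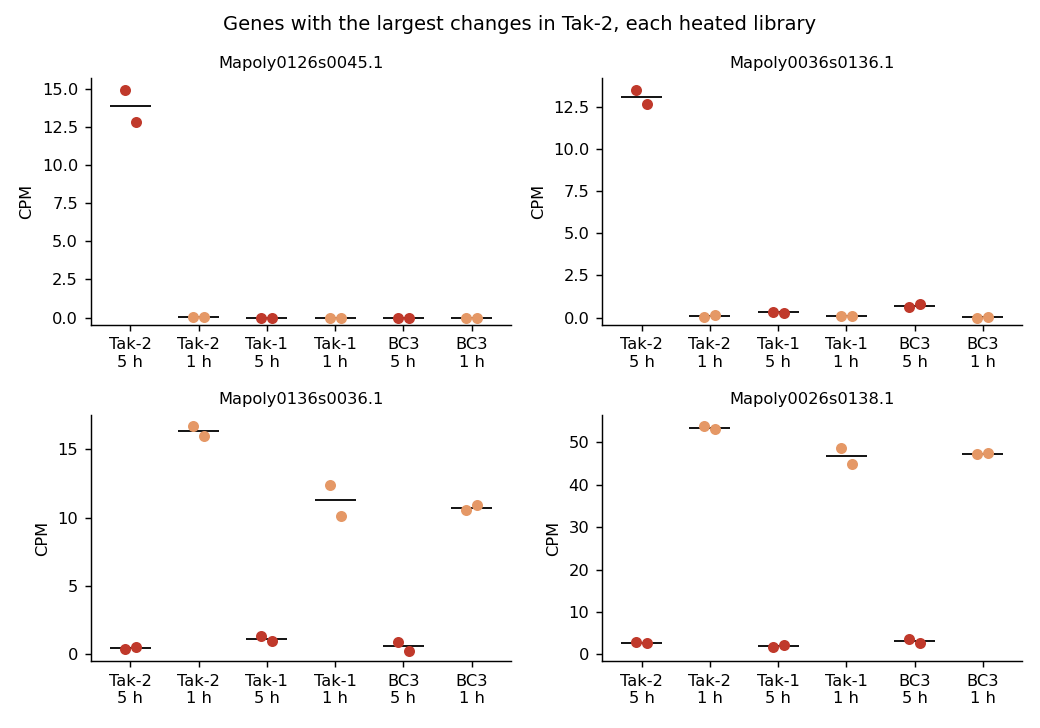
Level in CPM of the 2 genes with the largest rise (top) and the 2 with the largest fall (bottom) in each heated library of Tak-2, Tak-1 and BC3; points are libraries and lines are means of 2. Both rising genes stand above 12 CPM in Tak-2 at 5 h and under 1 CPM in all other heated libraries, while both falling genes are low at 5 h in all 3 accessions.

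Beyond these, the next 10 rises ran from a log2 of 6.38 to 3.71 and the next 10 falls from -3.67 to -2.52, by the same rule. Of the 12 genes with the largest rises, 10 also rose in Tak-1 and 10 in BC3, 9 of them in both. Of the 12 with the largest falls, 12 also fell in Tak-1 and 12 in BC3. Over all genes tested, 28.5% rose and 29.8% fell in Tak-1, and 27.1% rose and 27.4% fell in BC3. Values of 2 more genes were chosen after they were seen. The gene with the fifth largest rise reached 153 and 125 CPM at 5 h, against 1.74 and 2.84 CPM at 1 h, and had nearly the same change in Tak-1 (log2 5.94) and BC3 (5.97) as in Tak-2 (5.92). The gene in the eleventh place had 88.9 and 77.6 CPM at 5 h, against 5.70 and 4.54 CPM at 1 h (log2 4.02), beside 1.95 in Tak-1 and -0.33 in BC3. Both differences in change passed for it (adjusted p = 1.02e-04 against Tak-1 and 1.04e-09 against BC3). Genes that went from silence to a clear level were few: 5 had at most 3 reads over both libraries at 1 h and at least 5 CPM at 5 h, and 0 did the reverse.

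At the top of the transcriptome, a pair of transcripts nearly absent from unheated BC3 passed the most abundant one between 1 h and 5 h. The most abundant transcript at 5 h stood at 15857 and 15328 CPM, against 2785 and 2787 CPM at 1 h (log2 2.48 ± 0.06, adjusted p = 6.51e-17). The next stood at 15153 and 14723 CPM at 5 h, against 3544 and 3616 CPM at 1 h (log2 2.06 ± 0.05, adjusted p = 6.51e-17). Their identifiers carry adjacent numbers on one scaffold, and reads shared between them could not be separated here because the counting rule for reads with several places is not given in the sources used here. In unheated BC3 they had 1 and 3 reads and 4 and 2 reads in the 2 libraries. Both rose in the other accessions too, by 1.91 and 1.52 in Tak-1 and by 2.16 and 1.73 in BC3, and the rise in Tak-2 exceeded all of these (differences of 0.57 and 0.54 from Tak-1, adjusted p = 7.18e-05 and 1.78e-05, and of 0.33 and 0.33 from BC3, adjusted p = 0.0108 and 0.00254).

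The transcript in the third place, which unheated BC3 held at 15306 and 14282 CPM, did not pass at 13395 and 12849 CPM at 5 h, against 12877 and 13476 CPM at 1 h (log2 -0.01 ± 0.05, adjusted p = 0.938). It was the most abundant one at 1 h. The steepest rise among the 10 most abundant was that of the seventh, to 8922 and 8429 CPM at 5 h, against 995 and 974 CPM at 1 h (log2 3.14 ± 0.06, adjusted p = 4.24e-19). In all, 8 of the 10 rose and 2 did not pass, but a choice by level at 5 h favours rises (28.4% of all genes tested rose). The 10 took 10.03% and 9.75% of the reads of the genes tested at 5 h, against 5.62% and 5.73% at 1 h. Of the 10 most abundant at 1 h, a choice that favours falls, 3 rose, 4 fell and 3 did not pass, and they took 6.79% and 6.66% of the reads at 5 h, against 6.86% and 6.90% at 1 h.

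**Figure D3:**
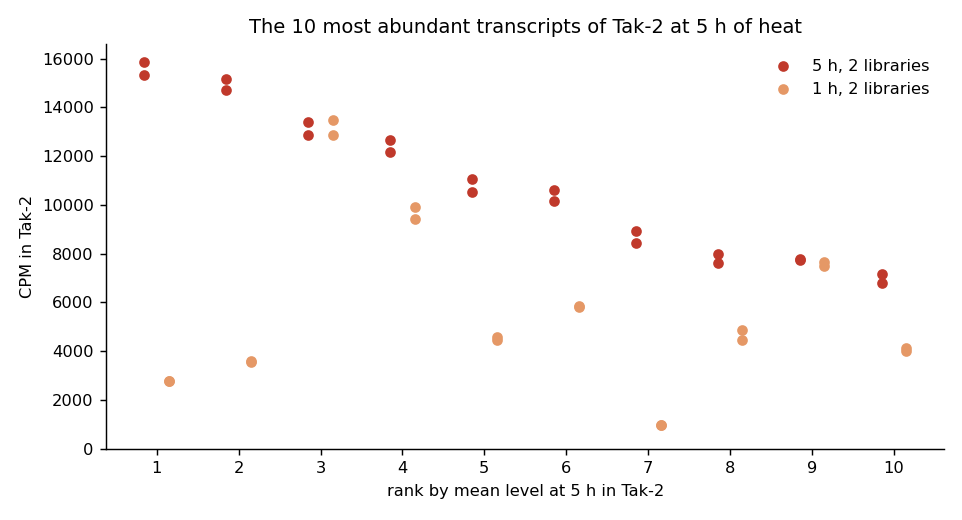
Level in CPM of the 10 transcripts with the highest mean at 5 h of heat in Tak-2, in each of the 2 libraries of 5 h (dark points) and the 2 of 1 h (light points), ordered by rank. The first 2 reach 14723 to 15857 CPM at 5 h and stand at 2785 to 3616 CPM at 1 h, while the third stands between 12849 and 13476 CPM at both times.

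Where these genes had stood before heat was read from BC3, another female accession whose libraries share none with Tak-2. The accession may thus differ from Tak-2 in ways not measured. Counts varied more between the 2 unheated BC3 libraries than in any other group fitted, 12.4 times as much as counting error gives. Most genes that rose in Tak-2 were above the unheated level at 5 h in BC3, and most that fell in Tak-2 were below it there; where Tak-2 stood against its own unheated level was not tested. Among the 829 rising genes of at least 2-fold, 579 (69.8%) were higher in BC3 at 5 h than without heat, 42 (5.07%) were lower and 208 (25.1%) were not called. Over all genes tested, 36.4% were higher and 34.9% lower in BC3 at 5 h. Among the 706 falling genes of at least 2-fold, 501 (71.0%) were lower in BC3 at 5 h than without heat, 65 (9.21%) were higher and 140 (19.8%) were not called.

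Fewer of these genes were called in BC3 at 1 h. Of the 829 rising genes, 276 (33.3%) were already raised in BC3 at 1 h, 458 (55.2%) were not called and 95 (11.5%) were lowered, while over all genes tested 28.4% were raised and 27.5% lowered. Of the 706 falling genes, 322 (45.6%) were already lowered at 1 h, 238 (33.7%) were not called and 146 (20.7%) were raised. Taking both times, the commonest pattern among rising genes was no call at 1 h and a higher level at 5 h (293 genes or 35.3%, beside 11.7% of all genes tested, with a median change in Tak-2 of 1.71). A higher level at both times followed (262 genes or 31.6%, beside 23.4%, median 1.44). Among falling genes it was a lower level at both times (319 genes or 45.2%, beside 22.4%, median -1.39), followed by no call at 1 h and a lower level at 5 h (152 genes or 21.5%, beside 11.5%, median -1.35). In smaller classes, 64 falling genes (9.07%, beside 23.4% of all) were raised in BC3 at both times, and 52 (7.37%, beside 3.97%) were raised at 1 h and not called at 5 h. The 39 rising genes lowered at 1 h and not called at 5 h (4.70%) were near the share over all genes (3.81%).

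Part of the genes with the strongest early induction rose further in Tak-2. In BC3, 68 genes were raised at least 32-fold at 1 h of heat, against unheated plants. In Tak-2, 30 of these rose further by 5 h, 14 fell and 24 were not called, with a median log2 change of 0.68 beside 0.00 over all genes, of which 28.4% rose and 30.7% fell. In Tak-1, 19 rose, 22 fell and 27 were not called, with a median of -0.11, near the shares over all genes (28.5% rose and 29.8% fell). The change in Tak-2 exceeded that in Tak-1 for 29 of the 68 (42.6%) and was below it for 0 of them by the edgeR test of the difference, beside 7.29% higher and 9.53% lower over all genes tested. For the other 39 the difference did not pass. The estimate was above 0 for 62 of the 68, with a median of 0.66 beside 0.01 over all genes, as a description over genes that are not independent. The list was longer with any 1 library of the groups involved left out, most so without either unheated BC3 library. The filter passed more genes in each of those fits, so the set tested was not the same.

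In these 68 genes the distance between Tak-2 and Tak-1 was larger at 5 h than at 1 h. Together they took 10.02% and 9.79% of the reads in Tak-2 at 5 h, against 6.05% and 6.01% at 1 h. In Tak-1 they took 7.08% and 6.90% at 5 h, against 6.19% and 6.28% at 1 h. The libraries of 5 h did not overlap between the accessions. The median log2 ratio of Tak-2 over Tak-1 was 0.66 at 5 h and 0.07 at 1 h. BC3 had 9.63% and 9.76% at 5 h, against 6.85% and 6.81% at 1 h, where the genes were chosen, and 0.0517% and 0.0538% without heat. The 2 most abundant transcripts of Tak-2 at 5 h are among the 68 and weigh heavily in these shares of reads. Their means in Tak-2 were 15592 and 14938 CPM at 5 h, against 2786 and 3580 CPM at 1 h. The difference in change from BC3 passed for 14 genes higher and 4 lower in Tak-2, beside 6.73% higher and 10.8% lower over all genes tested. The median log2 change in BC3 was 0.25, and the median log2 ratio of Tak-2 over BC3 was 0.27 at 5 h and -0.03 at 1 h. BC3 libraries of 1 h lie on both sides of the choice, and a choice by a high level at 1 h lowers the later change in BC3. Tak-2 and Tak-1 differ in sex and in accession at once, and these cannot be told apart here.

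The medians were nearer 0 for genes with weaker early induction (genes past 2-fold in BC3 that were not called there are left out). Among 136 genes raised 8- to 32-fold at 1 h in BC3, the median change in Tak-2 was 0.46, with 55 that rose and 30 that fell, and the difference from Tak-1 passed for 37 higher and 5 lower. Among 888 genes raised 2- to 8-fold the median was 0.08, with 315 that rose and 276 that fell. For these the difference from Tak-1 passed for 153 higher and 103 lower. Among 653 genes lowered 2- to 8-fold the median was -0.26, with 116 that rose and 244 that fell, and the difference from Tak-1 passed for 26 higher and 107 lower. The 43 genes lowered more than 8-fold had a median of 0.01, with 8 that rose and 7 that fell. Over all genes tested, 28.4% rose and 30.7% fell in Tak-2. The share that fell among the 888 genes was near this, and both shares among the 43 were below it. The difference from Tak-1 passed for 7.29% higher and 9.53% lower over all genes, beside 27.2% and 3.68% of the 136. It passed for 17.2% higher and 11.6% lower of the 888, and for 3.98% and 16.4% of the 653.

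**Figure D4:**
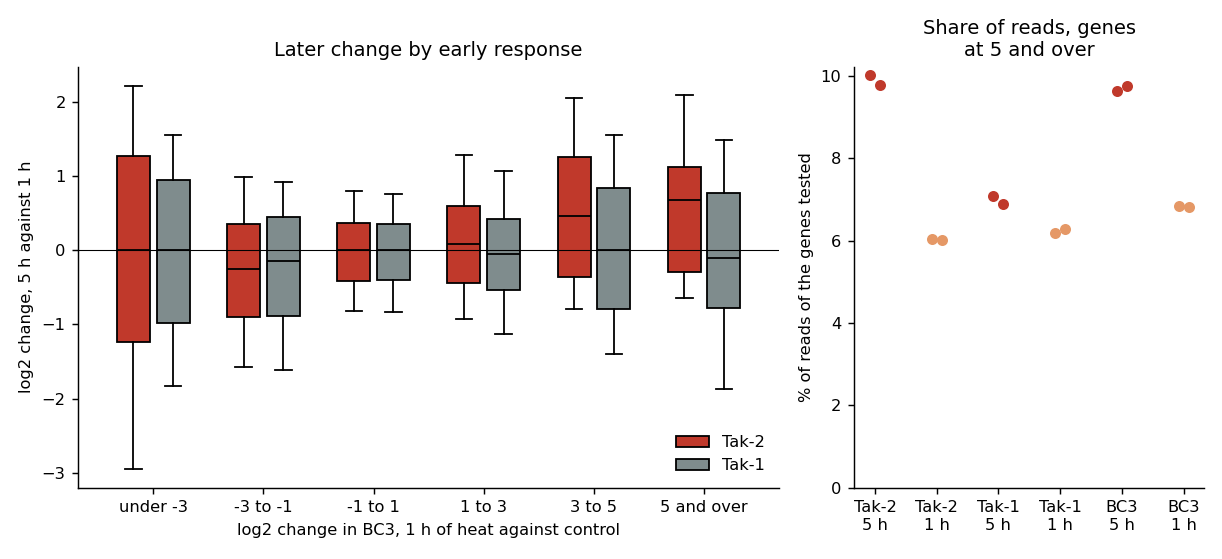
Left, log2 change from 1 h to 5 h of heat in Tak-2 and in Tak-1 for genes grouped by their log2 change in BC3 at 1 h against control; boxes span the quartiles, lines are medians and whiskers reach the 10th and 90th percentiles. Right, percent of reads of the genes tested that the 68 genes of the last group took in each heated library; Tak-2 and BC3 at 5 h stand between 9.63 and 10.02% and Tak-1 at 5 h between 6.90 and 7.08%.

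The change from 1 h to 5 h in Tak-2 was largely shared with the other accessions, with which it has no library in common. Of the 3061 genes that rose in Tak-2, 2219 rose in Tak-1 (72.5% of the Tak-2 list and 72.4% of the 3063 in Tak-1) and 2098 in BC3 (68.5% of the Tak-2 list and 72.0% of the 2914 in BC3). Of the 3299 that fell, 2445 fell in Tak-1 (74.1%, and 76.2% of its 3210) and 2248 in BC3 (68.1%, and 76.2% of its 2950). Over all genes tested, 58.3% were called in Tak-1 (28.5% higher and 29.8% lower) and 54.5% in BC3 (27.1% higher and 27.4% lower). Calls in the opposite direction were rare, with 71 and 128 in Tak-1 and 74 and 144 in BC3 among the rising and falling genes of Tak-2. In all 3 accessions 1830 genes rose and 1994 fell. Across the 10761 genes, Pearson's r of the log2 changes was 0.708 with Tak-1 and 0.663 with BC3, as a description over genes that are not independent.

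At 2-fold or more the lists were of different length. Tak-2 had 829 higher and 706 lower genes, Tak-1 had 659 (6.12%) and 800 (7.43%), 13.6% together, and BC3 had 563 (5.23%) and 562 (5.22%), 10.5% together. Of the Tak-2 lists, 293 of the rising genes (35.3%) and 274 of the falling genes (38.8%) changed at least 2-fold in all 3 accessions. A further 188 rising (22.7%) and 96 falling genes (13.6%) were called in that direction in neither Tak-1 nor BC3 at any size. To set the size of the change in Tak-2 beside another accession on a list that neither had chosen, the genes were first taken from Tak-1. Its 659 rising genes had a median change of 1.31 in Tak-2 and 1.16 in BC3, and 60.7% of them changed by more in Tak-2. Its 800 falling genes had a median of -1.09 in Tak-2 and -0.98 in BC3, with 56.8% larger in Tak-2. With the genes taken from BC3, the 563 rising ones had a median of 1.45 in Tak-2 and 1.40 in Tak-1, with 52.0% larger in Tak-2. The 562 falling ones had a median of -1.16 in Tak-2 and -1.26 in Tak-1, with 43.8% larger in Tak-2.

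The difference in change was tested gene by gene. The change in Tak-2 was higher than in Tak-1 for 784 genes (7.29%) and lower for 1026 (9.53%), 16.8% of genes tested. It was higher than in BC3 for 724 (6.73%) and lower for 1161 (10.8%), 17.5% of genes tested. The count higher than in Tak-1 was 490 with all 18 libraries in the fit, and the count higher than in BC3 was 468 without BC3 replicate 1 of 1 h. Differences of at least 2-fold were called for 159 higher (1.48%) and 88 lower genes (0.818%) against Tak-1, 2.30% together, and for 169 (1.57%) and 98 (0.911%) against BC3, 2.48% together. In 68 genes the change was higher than in both by at least 2-fold, and in 27 it was lower than in both, from tests that share the Tak-2 libraries. Of the 68, 51 rose in Tak-2 and 3 fell, and of the 27, 24 fell and 2 rose. Over all genes tested 28.4% rose and 30.7% fell in Tak-2, but the choice by a higher or lower change favours these directions. The median change of the 27 was -1.25 in Tak-2, beside 0.23 in Tak-1 and 0.31 in BC3. These genes were chosen on the same libraries. For the 68, the median log2 ratio of Tak-2 to BC3 was 1.51 at 5 h and -0.01 at 1 h, and to Tak-1 1.27 at 5 h and -0.16 at 1 h.

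Of these genes, 59 had at least 5 CPM in Tak-2, 40 with a higher and 19 with a lower change. Of the 40, 34 rose in Tak-2, and 9 of those fell in both other accessions. Of the 19, 17 fell in Tak-2, and 9 of those rose in both others. The choice of these genes favours such opposite directions. Over all genes tested, 25 rose in Tak-2 and fell in both others, and 63 fell in Tak-2 and rose in both others. Values of 3 of the 59, chosen after their values were seen, show the forms this took. Genes were ranked by the smaller of their 2 differences. The gene with the largest difference by this rank had 13.3 and 14.0 CPM at 5 h, against 0.900 and 1.39 CPM at 1 h in Tak-2, and 0.442 and 0.436 CPM at 5 h, against 1.73 and 1.62 CPM at 1 h in Tak-1. In BC3 it had 0.377 and 0.552 CPM at 5 h, against 1.09 and 1.18 CPM at 1 h (differences of 5.49 and 4.83, adjusted p = 2.07e-08 and 2.04e-07).

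The first gene by this rank with a lower change had 31.7 and 34.8 CPM at 5 h, against 112 and 99.5 CPM at 1 h in Tak-2 (log2 -1.67), while Tak-1 had 116 and 106 CPM at 5 h, against 96.0 and 100.2 CPM at 1 h. BC3 had 89.9 and 81.3 CPM at 5 h, against 80.5 and 85.6 CPM at 1 h (differences of -1.84 and -1.71, adjusted p = 1.29e-08 and 3.79e-08). The most abundant of the 59 had 248 and 247 CPM at 5 h, against 292 and 290 CPM at 1 h in Tak-2 (log2 -0.23). It reached 775 and 802 CPM at 5 h, against 287 and 290 CPM at 1 h in Tak-1, and 895 and 876 CPM at 5 h, against 292 and 314 CPM at 1 h in BC3. This gene stood at like levels in all 3 accessions at 1 h and apart from them in Tak-2 at 5 h (differences of -1.68 and -1.78, adjusted p = 5.55e-12 and 1.87e-12).

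**Figure D5:**
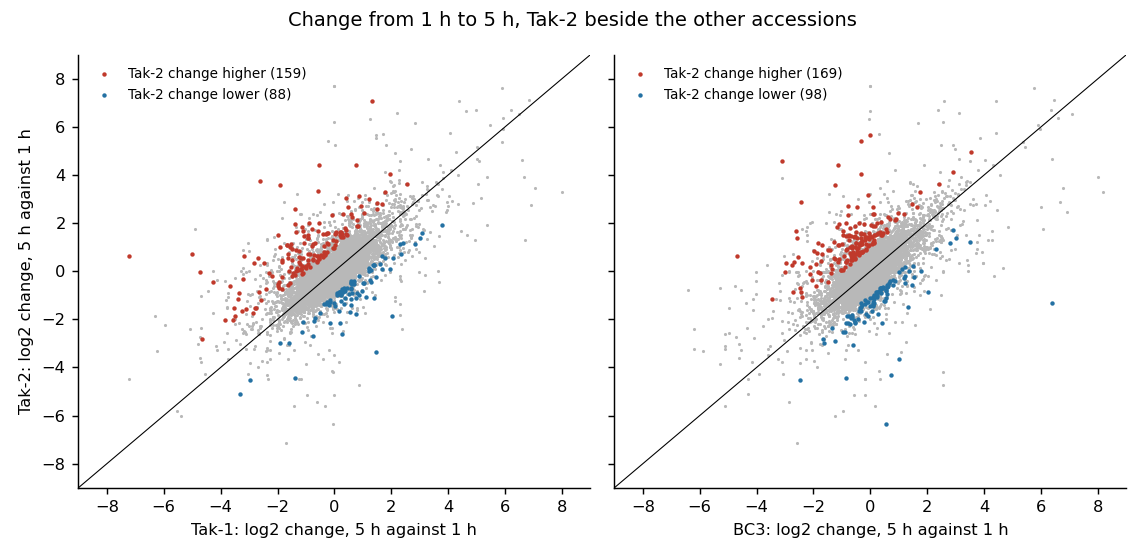
Log2 change from 1 h to 5 h of heat of each gene tested in Tak-2 (vertical axis) against the change in Tak-1 (left) and BC3 (right), with the diagonal of equal change. Genes whose change differs by at least 2-fold at an adjusted p below 0.05 are coloured, 159 higher and 88 lower in Tak-2 than in Tak-1 and 169 higher and 98 lower than in BC3, and the rest are grey.

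Some of the changed genes carried adjacent numbers on one scaffold. Of the 691 rising genes of at least 2-fold with a tested neighbour, 147 (21.3%) lay next to another rising gene, beside 817 (10.02%) of the tested genes that did not rise by that much. Of the 541 such falling genes, 88 (16.3%) lay next to another falling gene, beside 669 (8.06%) of the others. The longest run was one of 5 falling genes, with changes of -2.84 to -1.15, and all 5 also fell in Tak-1 and in BC3. The longest run of rising genes held 4, with changes of 1.39 to 4.65 and means of 2.83 to 7.75 CPM at 5 h, against 0.180 to 1.298 CPM at 1 h, and all 4 also rose in Tak-1 and in BC3. Whether neighbours share reads as near copies of one gene was not tested.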

How the data were processed

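The deposited table holds whole-number counts of reads per gene model for 18 libraries, with no normalization by the authors. STAR is the one tool in the submitters' processing notes. Its version, the counting program and rule, the build and the strandedness were not given in those notes or the labels. Columns were matched to samples through the labels, and the unnamed last line, the column sums, was left out. The edgeR 4.0.16 quasi-likelihood F test (R 4.3.3, TMM scaling, filterByExpr) fitted a mean for each of 8 groups in 16 libraries, without the pair titled Tak-2 control. Benjamini-Hochberg adjustment ran over the 10761 genes that passed the filter. Levels are CPM, changes are log2 ± SE, and each group had 2 libraries. Ratios between accessions use log2(mean CPM + 0.5). Counts varied 3.03 and 3.17 times as much between the Tak-2 libraries of 5 h and 1 h as counting error gives (genes of at least 20 reads). In the heated groups of Tak-1 and BC3 this ran from 2.11 to 4.04. It was 12.4 between the unheated BC3 libraries, on which the classes by response in BC3 rest, and 8.20 between those titled Tak-1 control. The groups share an estimate of the spread. Genes named are the 2 largest rises and 2 largest falls that passed, at 5 CPM or more, with libraries that do not overlap. No list by function was used and no sequence is printed, since 0 identifiers were matched to a name. The fit was run on simulated data with the same spread for all genes and changes set only in genes of at least 5 CPM. That run cannot show how the test does at lower levels or with the uneven noise of these libraries. The comparison and lists were chosen with earlier results of these data known. Alternatives were DESeq2 1.42.0, its size factors, no filter, all 18 libraries, the 4 Tak-2 libraries alone, a replicate block and each library left out, and, added after seeing the data, a fit without the pair titled Tak-1 control and all alternatives for the counts by early response in BC3.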

Additional observations from a re-analysis of the deposited data

Results flagged for a closer look

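The change from 1 h to 5 h of heat differed between accessions by the edgeR test of the difference for 1810 genes between Tak-2 and Tak-1 and for 1885 between Tak-2 and BC3. Among the named genes it differed from Tak-1 for Mapoly0036s0136.1, by a log2 of 5.74, and for Mapoly0136s0036.1, by -1.79. Outside these comparisons, the library titled Tak-2 control replicate 1 held 16838 reads on identifiers marked as Y, against 17 in the library titled Tak-2 control replicate 2.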

How the results depend on the processing

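The count of 6360 genes that changed in Tak-2 was 6368 with DESeq2 size factors, 5952 by DESeq2, 6410 with no filter on low counts, 5938 with all 18 libraries, 6644 with the 4 Tak-2 libraries alone and 6490 without the libraries titled Tak-1 control. With each of the 4 Tak-2 libraries left out in turn it was 5542 to 5624, the lone library being assumed to vary like the other groups. The replicate block gave 6248 calls; replicate numbers of Tak-2 at 5 h and 1 h did not deviate together (correlation -0.049), so they were not taken as pairs. The 4 named genes kept their direction and passed under each alternative that was run. The count of genes with a higher change in Tak-2 than in Tak-1 was 490 with all 18 libraries, against 784, and the cause was not tested. The count higher than in BC3 was 468 to 586 with 1 library left out, lowest without BC3 replicate 1 of 1 h, against 724. The number of genes raised at least 32-fold early in BC3 ran from 72 to 112 with 1 library left out (112 and 103 without BC3 control replicate 1 and 2), against 68, and 22 to 36 of them had a higher change in Tak-2 than in Tak-1. The other counts recomputed stayed within 1.5 times: calls in each comparison, the 2-fold lists of Tak-2 and their counts by early response in BC3. Counts at 4-fold or more, 2-fold differences between accessions, shared lists, bins and neighbours were not recomputed. Genes under 5 CPM rest on few reads, which widens their error.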
